A study of Mus musculus with 6 samples.

Results

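Kinesins are motor proteins that use ATP to walk along microtubules or to take their ends apart. The genes described here are those of the kinesin family in the mRNA table, taken as every gene whose symbol begins with Kif or Kifc and a digit. The rule found 43 of the 21954 genes in the table, of which 42 belong to the kinesin motor family and 1, Kif1bp, encodes a binding partner of Kif1 motors. The 42, called motors here although Kif26a is known to lack motor activity, were sorted by their known roles into 14 of mitosis, 13 of cargo transport, 9 of cilia and 6 with other roles. RNA came from whole thymus of C57BL wild-type mice aged 5 weeks. Irradiated mice received 6 Gy of X-rays and were killed 24 h later, control mice were not exposed, and each group gave 3 libraries. Polyadenylated RNA was sequenced, and each library gives 1 FPKM value per gene, that is, fragments scaled by transcript length and by sequencing depth.

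Mitotic kinesins build the spindle, move chromosomes along it and direct the final cut between daughter cells, and their genes are switched on late in the cell cycle. Most transport kinesins carry vesicles, endosomes and mitochondria toward microtubule plus ends, while ciliary kinesins feed material into the cilium or set its length. In the thymus the cells that divide most are immature thymocytes, so mitotic kinesins are known there as genes of cycling cells, whereas many transport and ciliary kinesins are better known from neurons and epithelia.

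The libraries differed in ways that touch these genes. In depth they were alike: 1 fragment on 1 kb of transcript was worth 0.0391 to 0.0409 FPKM in irradiated and 0.0431 to 0.0456 FPKM in control libraries. Over the 14001 genes tested, log2 fold changes, irradiated minus control, had a median of 0.40, so that a gene at 0 lay below most others. Quantile normalization moved this median to -0.07 and median-ratio scaling moved it to 0.02. Genes that define double-positive thymocytes, immature T cells of the cortex, summed to 59.7 to 109 FPKM in irradiated and 1920 to 2229 FPKM in control libraries. All 10 of them fell, where 20.9% of all tested genes fell. Fewer cells of a type and less RNA per cell cannot be told apart in such whole-tissue samples. Irradiated replicate 2 stood apart by 7 genes of airway secretory cells, which summed to 3631 FPKM there, against 55.0 and 51.5 FPKM in irradiated replicates 1 and 3 and 3.29 to 4.98 FPKM in controls. Skeletal muscle genes, 7 in all, summed to 4.99, 138.8 and 32.3 FPKM in irradiated replicates 1, 2 and 3, against 6.27 to 7.25 FPKM in controls. Nothing in the labels says which mouse gave which library, and the spread behind the p-values is that of these samples, which may be partly technical.

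The question of the comparison is which kinesin genes differed between irradiated and unexposed thymus at 24 h. Mitotic kinesins fell, and most transport and ciliary kinesins that changed rose. Of 37 kinesin genes with at least 0.5 FPKM on average over the 6 libraries, 33 differed at a Benjamini-Hochberg adjusted p under 0.05 in limma, where 63.2% of all tested genes did. Of the 13 mitotic kinesins above that level 13 fell, where 20.9% of all tested genes fell. Of the 23 transport, ciliary and other motors above that level, 15 rose, where 42.4% of all tested genes rose, and 5 fell. These counts depend on the classes, which were set with earlier results of these data known. Kif2a, a motor of neurons and spindles, was placed among the other motors and did not pass (log2 fold change -0.46). Without irradiated replicate 2, the library with airway genes, 13 mitotic kinesins still fell, and 12 kinesin genes rose in all. The median log2 fold change was -2.87 for the tested mitotic kinesins and 1.11 for the 23 others, beside 0.40 for all genes. The groups did not overlap for 13 mitotic kinesins, lower in each case, and for 15 higher and 5 lower of the other motors, against 46.1% higher and 24.7% lower of all tested genes. The median also depends on who passed the level filter: Kif9, Kif17, Kif6, Kif19a and Kif1a averaged under 0.5 FPKM in controls and were tested only because of their irradiated values, 4 of them being among the 15 that rose. No tested mitotic kinesin averaged under 0.5 FPKM in either group.

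**Figure D1:**
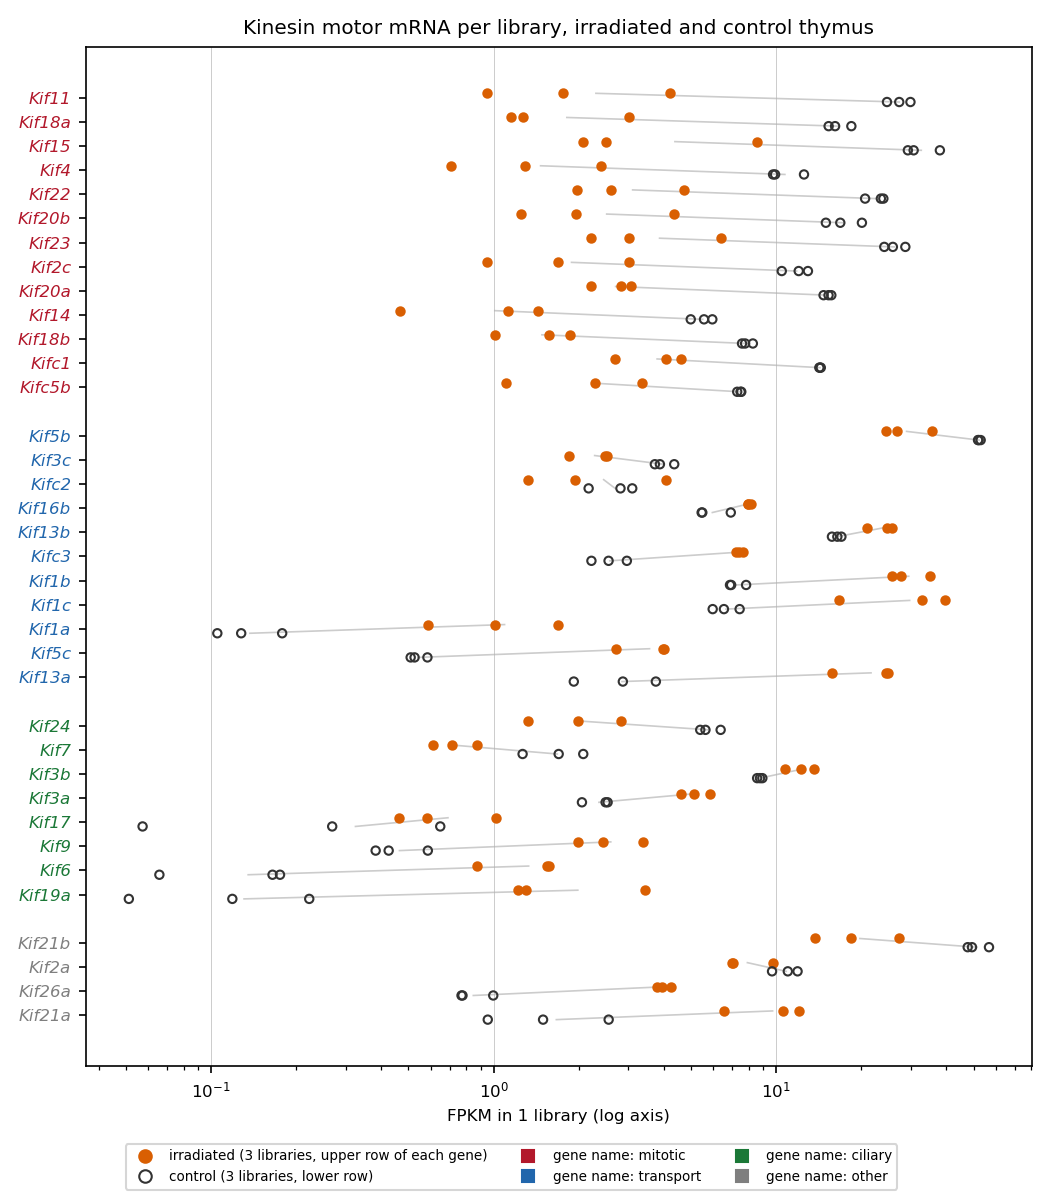
FPKM of each tested kinesin motor in every library (log axis), with irradiated libraries as filled points above and control libraries as open points below, and grey lines joining the group means. The 3 irradiated values of each mitotic kinesin lie left of its 3 control values, while most transport and ciliary motors are shifted the other way.

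Kif11 makes the bipolar motor that slides spindle microtubules apart (ENSMUSG00000012443, GRCm38 chromosome 19, 37376403 to 37421859). It had 4.20, 0.945 and 1.76 FPKM in irradiated libraries, against 29.9, 27.3 and 24.7 FPKM in control libraries. The highest irradiated value was far under the lowest control value. Its log2 fold change was -3.75 ± 0.47 (SE, adjusted p = 0.000558 in limma), the largest fall among the kinesins tested here. Kif15, which can stand in for Kif11 at the spindle (chromosome 9, 122951046 to 123018733), had 8.58, 2.08 and 2.49 FPKM in irradiated libraries, against 38.0, 30.7 and 29.3 FPKM in control libraries. By mean FPKM it was the most abundant mitotic kinesin in both groups, with a log2 fold change of -3.15 ± 0.49 (SE, adjusted p = 0.00142 in limma). In irradiated thymus this rank rested on replicate 1, and Kifc1 was higher in irradiated replicates 2 and 3, at 2.68 and 4.08 FPKM.

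Motors that act on chromosomes and on microtubule ends also fell. Kif18a, which damps chromosome swings at the metaphase plate (chromosome 2, 109280738 to 109341747), measured 3.02, 1.15 and 1.27 FPKM in irradiated thymus, against 18.5, 16.2 and 15.3 FPKM in control thymus. Kif22, a motor on chromosome arms, measured 4.73, 1.98 and 2.60 FPKM in irradiated and 24.0, 23.5 and 20.6 FPKM in control thymus. Kif4, another chromosome-bound motor, was at 2.40, 0.707 and 1.29 FPKM in irradiated and 12.6, 9.92 and 9.75 FPKM in control libraries. These 3 genes were lowest in irradiated replicate 2 and had no overlap between groups. Their log2 fold changes were -3.25, -2.92 and -2.93. Kif2c, which dismantles microtubules to correct faulty chromosome attachments, was at 3.02, 0.950 and 1.69 FPKM in irradiated and 12.0, 13 and 10.5 FPKM in control libraries. Kif18b, which shortens astral microtubules, was at 1.86, 1.01 and 1.57 FPKM in irradiated and 8.27, 7.57 and 7.77 FPKM in control libraries. Both fell, by 2.72 and 2.37 on the log2 scale.

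The motors of the central spindle and of cytokinesis behaved likewise. Kif23, which with Racgap1 bundles the central spindle (chromosome 9, 61917280 to 61946774), had 6.38, 2.21 and 3.02 FPKM in irradiated libraries, against 28.7, 25.9 and 24.1 FPKM in control libraries, a log2 fold change of -2.87 ± 0.36 (SE, adjusted p = 0.00056 in limma). Kif20b, which acts late in cytokinesis, had 4.34, 1.25 and 1.95 FPKM in irradiated and 20.1, 16.9 and 15 FPKM in control libraries. Kif14, a partner of citron kinase at the midbody, had 1.44, 0.468 and 1.13 FPKM in irradiated and 5.95, 5.56 and 4.99 FPKM in control libraries. Again no irradiated value reached a control value. Kif20a, which carries the chromosomal passenger complex to the central spindle (ENSMUSG00000003779, chromosome 18, 34624613 to 34633277), stood out by its small spread, with 2.83, 2.22 and 3.06 FPKM in irradiated and 15.7, 14.7 and 15.3 FPKM in control thymus. Its log2 fold change was -2.46 ± 0.17 (SE), and its adjusted p of 7.19e-05 in limma was the smallest of the family.

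The minus-end motors fell least among the mitotic kinesins. Kifc1, which focuses spindle poles (chromosome 17, 33875659 to 33890661), had 4.61, 2.68 and 4.08 FPKM in irradiated thymus, against 14.3, 14.4 and 14.2 FPKM in control thymus, a log2 fold change of -1.92 ± 0.22 (SE, adjusted p = 0.000358 in limma). Kifc5b, its close copy on the same chromosome (26917091 to 26932583), had 3.34, 1.1 and 2.29 FPKM in irradiated and 7.53, 7.48 and 7.28 FPKM in control thymus, a log2 fold change of -1.81 ± 0.37 (limma adjusted p = 0.00443). The longest coding transcripts of the pair in GENCODE M21 share 1057 stretches of 50 bases, which is 45.8% of those of Kifc1 and 40.9% of those of Kifc5b, and no other pair of kinesin genes shared any. Reads from these stretches could be assigned to either gene, so how the level divides between both is uncertain. The last mitotic kinesin, Kif2b, was listed at 0 in the 6 libraries, where 3 fragments would have given 0.0523 to 0.0547 FPKM in irradiated and 0.0576 to 0.0610 FPKM in control libraries.

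What was left of the mitotic kinesins differed between the irradiated libraries. As a percentage of the control mean, the median over the 13 genes was 24.3% in irradiated replicate 1, 8.41% in replicate 2 and 12.0% in replicate 3. Replicate 1 was the highest for 12 of the 13, the exception being Kif20a with replicate 3, and replicate 2 the lowest for 13. The genes of double-positive thymocytes stood at medians of 4.45%, 1.58% and 1.88% in the same libraries, with 7 of 10 highest in replicate 1. The coefficient of variation of a mitotic kinesin had a median of 55.6% in irradiated and 8.77% in control libraries, while that of the other 23 motors was 20.8% in irradiated and 14.0% in control libraries. The part of depth, cell composition or mouse in this spread was not tested.

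**Figure D2:**
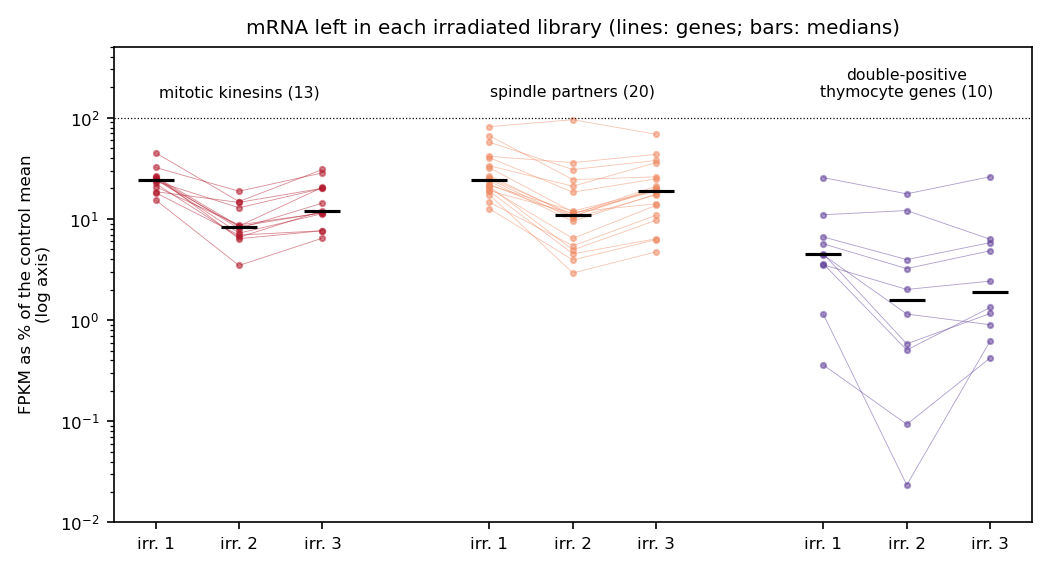
FPKM in each irradiated library as a percentage of the control mean (log axis), for the 13 tested mitotic kinesins, 20 spindle partner genes and 10 genes of double-positive thymocytes; thin lines join the values of 1 gene and black bars are medians. The mitotic kinesins keep a median of 24.3%, 8.41% and 12.0% in irradiated replicates 1, 2 and 3, and the median of the thymocyte genes is lower in each.

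The promoters of the kinesin genes were compared between classes. Many genes of late cell cycle phases carry near their start a cell cycle genes homology region, called CHR, with the letters TTTGAA, where repressor and activator complexes of the cell cycle are known to bind, often with a CCAAT box, the site of the factor NF-Y, upstream. The letters TTTGAA, which read TTCAAA on the opposite strand, were searched together with the variant spelled TTCGAA, and the box CCAAT together with its opposite strand, written ATTGG. Overlapping matches were counted. The search covered the 300 bases of each RefSeq promoter on GRCm38.p6, 250 before the start and 50 from it on, and 33 of the kinesin genes had one in the table. Kif20a, Kif13b, Kif19a, Kif1bp, Kif21b, Kif28, Kif5a, Kif5b, Kifc2 and Kifc3 had none. A CHR was found in 11 of 13 mitotic kinesin promoters, in 4 of 24 promoters of the other motors and in 19.2% of all 32851 promoters. The 13 mitotic promoters take in Kif2b, which was at 0 in every library and had no CHR, and leave out Kif20a, which fell. Within 50 bases of the start, a bound chosen after the positions were seen, it was found in 9 of 13, 3 of 24 and 5.31%. The CCAAT letters were in 9 of 13 mitotic, 8 of 24 other and 37.4% of all promoters.

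The 9 mitotic kinesins with a CHR near the start are shown with 30 bases around it, 5′ to 3′ on the strand of the gene, because the shared hexamer and the variety of the bases around it are easiest to see side by side. Capitals mark the CHR and, where it fits in the window, the CCAAT box.
Kif11: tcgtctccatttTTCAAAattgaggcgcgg
Kif15: tggggcgccaaaTTCAAAtctgcggccatc
Kif22: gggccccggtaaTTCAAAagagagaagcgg
Kif18b: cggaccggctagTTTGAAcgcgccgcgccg
Kif23: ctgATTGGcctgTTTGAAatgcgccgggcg
Kif20b: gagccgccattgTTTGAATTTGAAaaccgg
Kif4: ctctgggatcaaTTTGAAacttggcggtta
Kifc1: cggaggttgaaaTTCAAAagtggcgggtgt
Kifc5b: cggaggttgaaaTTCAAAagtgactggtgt

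The windows of Kif11 (chr19:37376351-37376380, plus strand), Kif15 (chr9:122951050-122951079, plus) and Kif22 (chr7:127042420-127042449, minus) have their CHR 19, 19 and 17 bases before the start. In Kif18b (chr11:102925104-102925133, minus), Kif23 (chr9:61946780-61946809, minus), Kif20b (chr19:34922353-34922382, plus), Kif4 (chrX:100626072-100626101, plus), Kifc1 (chr17:33890615-33890644, minus) and Kifc5b (chr17:26917108-26917137, plus) it begins after the start, at base 4, 3, 8, 20, 2 and 30 of the transcript. Kif20b has 2 in a row, and the windows of Kifc1 and Kifc5b are nearly the same. The RefSeq start lies within 100 bases of the outer start in the deposited table for 11 of the 13 mitotic kinesins. The exceptions are Kif2c, 3867 bases off, and Kif4, 328 bases off. Among the other motors the starts of Kif17 and Kif27 lie 11816 and 4175 bases off.

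Among the genes above, Kif11, Kif22, Kif18b, Kif23, Kif4, Kifc1 and Kifc5b have a CCAAT box before the CHR, and Kif15 and Kif20b have none. Kif11 and Kif22 are shown for this arrangement, and Kif18a and Kif13a for promoters without either, here in the 80 bases before the start.
Kif11: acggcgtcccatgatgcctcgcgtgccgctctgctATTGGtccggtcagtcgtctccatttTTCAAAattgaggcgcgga
Kif22: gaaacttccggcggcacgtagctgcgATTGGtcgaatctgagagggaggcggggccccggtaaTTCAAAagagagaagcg
Kif18a: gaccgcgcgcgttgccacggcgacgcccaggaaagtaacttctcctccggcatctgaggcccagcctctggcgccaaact
Kif13a: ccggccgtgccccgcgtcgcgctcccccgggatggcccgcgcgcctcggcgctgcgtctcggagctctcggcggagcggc
These are chr19:37376302-37376381 (plus), chr7:127042421-127042500 (minus), chr2:109280658-109280737 (plus) and chr13:46929719-46929798 (minus). Kif18a had the second largest fall of the family, so these letters in this window did not go with every fall. Kif14 and Kif2c had a CHR only farther up, 228 and 103 bases before the start, and the RefSeq start of Kif2c is 3867 bases from the outer one. Outside the mitotic class a CHR near the start was found in Kif24, which fell, as the variant TTCGAA. It was also found in Kif26b and in Kif1a, which did not fall, and in Kif1a it lies at a second RefSeq start inside the gene (window chr1:93082507-93082536, minus) and not at the outer one. A match of 6 letters is a description of the sequence and does not show that a factor binds there.

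**Figure D3:**
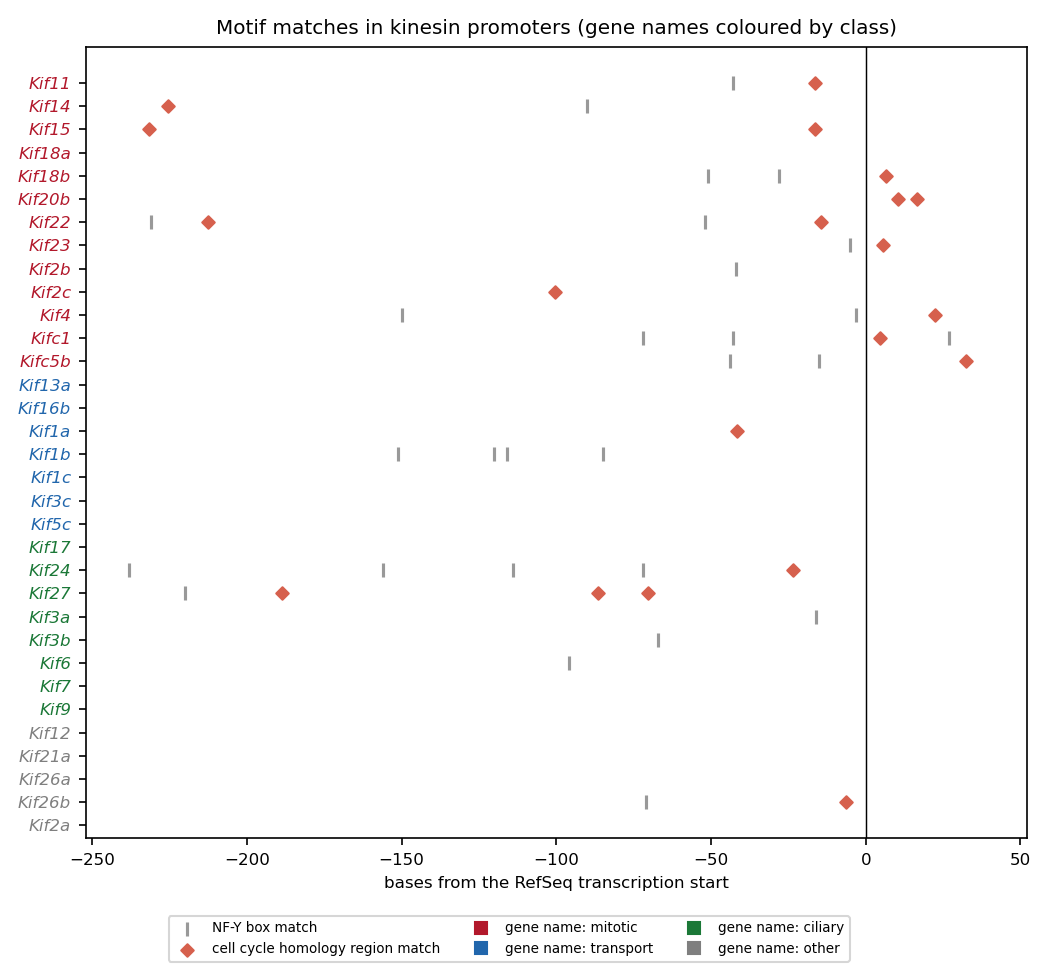
Position of CHR matches (diamonds) and CCAAT box matches, labelled NF-Y box (ticks), in the promoters of 33 kinesin motors, as bases from the RefSeq start, with gene names coloured by class. The diamonds of 9 mitotic kinesins gather within 50 bases of the start, where 3 other motors have one.

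Transport motors changed in both directions. Of 11 tested, 8 rose and 2 fell, where 42.4% of all tested genes rose and 20.9% fell. Markers of non-lymphoid cells rose in the same libraries. Fibroblast genes (6 of 6 rose) summed to 523 to 623 FPKM in irradiated and 55.5 to 68.0 FPKM in control libraries, and macrophage genes (5 of 5) to 379 to 535 FPKM in irradiated and 52 to 62.0 FPKM in control libraries. Thymic epithelial genes (5 of 6) summed to 323 to 798 FPKM in irradiated and 96.6 to 121 FPKM in control libraries, and endothelial genes (6 of 7) to 48.2 to 117 FPKM in irradiated and 32.4 to 41.6 FPKM in control libraries. The part of these cell types in the rise of any kinesin was not tested. Kif13a, which moves endosomes (ENSMUSG00000021375, chromosome 13, 46749087 to 46929718), had 15.8, 24.4 and 24.8 FPKM in irradiated libraries, against 1.92, 2.87 and 3.75 FPKM in control libraries. The groups lay far apart, and the log2 fold change of 2.90 ± 0.29 (SE, adjusted p = 0.000226 in limma) was the largest rise among transport motors. Kif1b, a carrier of mitochondria and synaptic vesicle precursors (chromosome 4, 149176319 to 149307692), had 25.7, 34.9 and 27.7 FPKM in irradiated and 7.83, 6.93 and 6.87 FPKM in control libraries, a log2 fold change of 2.01 ± 0.16 (limma adjusted p = 0.00011). Kif1c, which carries vesicles in many cell types, had 16.7, 39.5 and 32.9 FPKM in irradiated and 5.96, 6.54 and 7.43 FPKM in control libraries, a rise of 2.06 ± 0.31 on the log2 scale (SE, adjusted p = 0.00126 in limma). Irradiated replicate 1 was the lowest of the irradiated values of all 3 genes, yet above every control.

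Kifc3, a minus-end motor of epithelial junctions and the Golgi, had 7.63, 7.40 and 7.24 FPKM in irradiated and 2.96, 2.22 and 2.55 FPKM in control thymus. Kif5c, a conventional kinesin best known from neurons, had 4.00, 2.71 and 3.99 FPKM in irradiated and 0.509, 0.525 and 0.583 FPKM in control thymus. Kif1a, the axonal carrier of synaptic vesicle precursors, had 0.585, 1.69 and 1.01 FPKM in irradiated and 0.128, 0.105 and 0.179 FPKM in control thymus. These rises were 1.5, 2.5 and 2.23 on the log2 scale, and that of Kif1a lost its call after quantile normalization (0.55, limma adjusted p = 0.254). Genes of neurons and Schwann cells, 10 in all, summed to 6.31, 23.2 and 10.5 FPKM in irradiated replicates 1, 2 and 3, against 2.89 to 3.86 FPKM in controls. Only 6 of the 10 were tested, and 5 of these rose, where 42.4% of all tested genes rose. Gap43 was at 0 in irradiated replicate 1 and in the controls, and Sox10 at 0 in irradiated replicate 1. The part of nerve tissue, like that of the stromal and myeloid cells above, in the rise of these motors was not tested.

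Smaller changes depended on the scaling between libraries. Kif13b had 25.7, 24.7 and 20.9 FPKM in irradiated and 15.8, 16.5 and 17.0 FPKM in control libraries, a log2 fold change of 0.53 ± 0.13 (limma adjusted p = 0.0109), close to the median of all genes, that was 0.15 after median-ratio scaling (limma adjusted p = 0.406). Kif16b, a motor of early endosomes, had 8.12, 7.94 and 7.96 FPKM in irradiated and 5.45, 6.91 and 5.48 FPKM in control libraries, a log2 fold change of 0.43 (limma adjusted p = 0.0436) that lost its call in 8 of 14 alternatives and turned to -0.03 after quantile normalization.

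The conventional kinesin Kif5b fell, and so did Kif3c. Kif5b, the main heavy chain of ubiquitous transport (ENSMUSG00000006740, chromosome 18, 6201002 to 6241523), had 35.6, 24.4 and 26.8 FPKM in irradiated thymus, against 53.0, 51.8 and 52.1 FPKM in control thymus. Its spread over the controls was small, and it fell by 0.87 ± 0.17 on the log2 scale (SE, adjusted p = 0.00343 in limma). Kif3c, a neuronal relative of the ciliary motors, had 1.85, 2.51 and 2.47 FPKM in irradiated and 3.72, 4.36 and 3.88 FPKM in control thymus, a log2 fold change of -0.79 whose call was lost without control replicate 2 (limma adjusted p = 0.0607). Kifc2, at 4.08, 1.95 and 1.33 FPKM in irradiated and 2.17, 2.81 and 3.10 FPKM in control thymus, had groups that overlapped and did not pass (log2 fold change -0.26, limma adjusted p = 0.586).

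**Figure D4:**
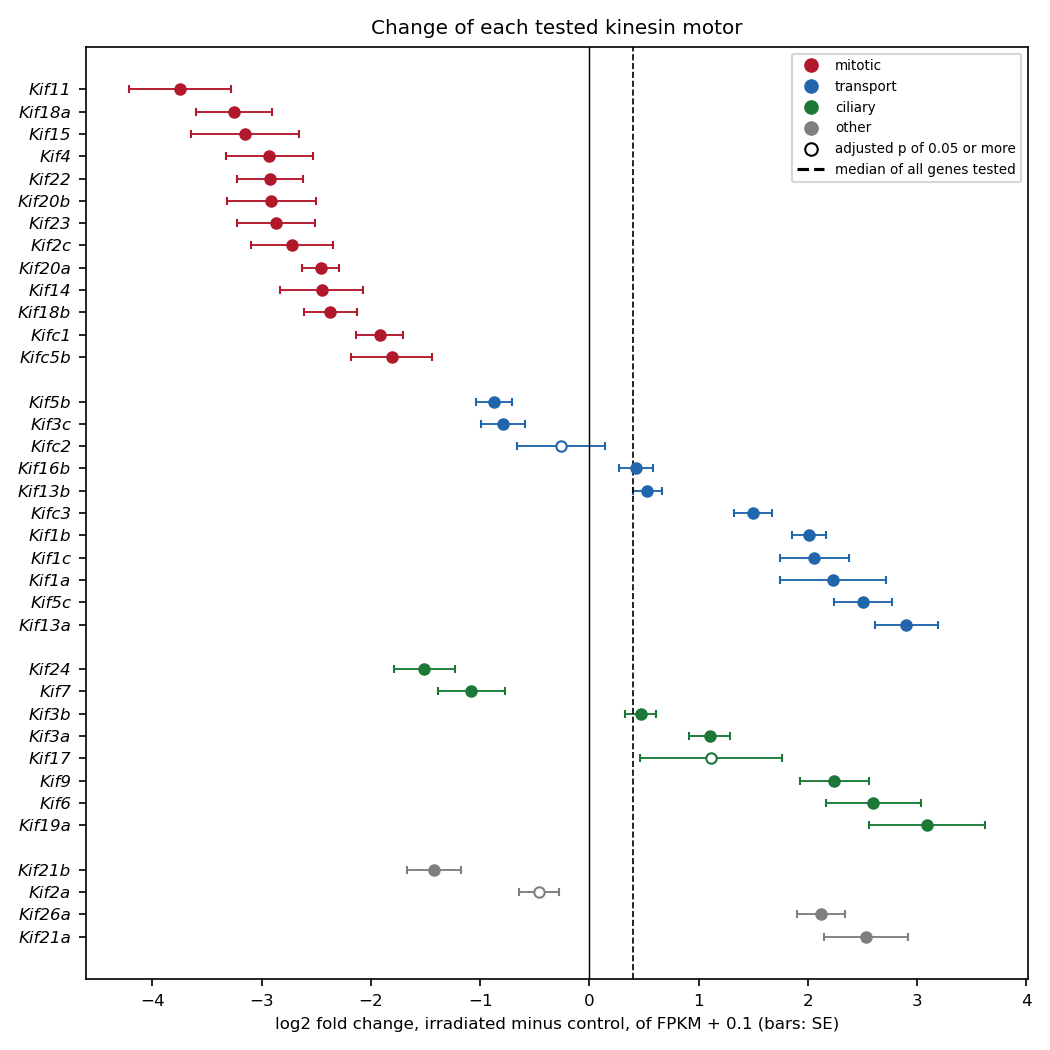
Log2 fold change of FPKM + 0.1, irradiated minus control, of each tested kinesin motor with its SE, coloured by class; open points did not pass an adjusted p of 0.05 in limma and the dashed line is the median of all genes tested (0.40). The 13 mitotic kinesins run from -3.75 to -1.81, and transport, ciliary and other motors lie on both sides, from -1.51 to 3.09.

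Among the ciliary kinesins 5 of 8 tested rose and 2 fell, where 42.4% of all tested genes rose and 20.9% fell. The motors of motile cilia had the largest fold changes of the class, but Kif19a, Kif6 and Kif9 averaged under 0.5 FPKM in controls and were tested only through their irradiated values. Kif19a, which trims cilium tips (ENSMUSG00000010021, chromosome 11, 114765388 to 114790739), had 1.31, 3.44 and 1.22 FPKM in irradiated and 0.0512, 0.223 and 0.119 FPKM in control libraries, a log2 fold change of 3.09 ± 0.53 (SE, adjusted p = 0.00221 in limma). Kif6 had 1.54, 1.57 and 0.876 FPKM in irradiated and 0.176, 0.0657 and 0.165 FPKM in control libraries, and Kif9 had 2.0, 3.37 and 2.43 FPKM in irradiated and 0.585, 0.383 and 0.425 FPKM in control libraries. All 3 had no overlap between groups, with log2 fold changes of 2.60 for Kif6 and 2.24 for Kif9, and the call for Kif6 was lost after quantile normalization (0.92, limma adjusted p = 0.107). Kif27, a partner in motile cilia, averaged too little to be tested, with 0.237, 0.905 and 0.518 FPKM in irradiated and 0, 0.0623 and 0.0139 FPKM in control libraries.

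Markers of motile ciliated cells were set beside these motors. The 15 marker genes in the table summed to 15, 53.8 and 8.35 FPKM in irradiated replicates 1, 2 and 3, against 4.07, 2.82 and 4.00 FPKM in control replicates 1, 2 and 3. Of the 11 tested 6 rose, where 42.4% of all tested genes rose, and their median log2 fold change was 1.89, beside 0.40 for all genes. By the authors' deposited values 14 of the 15 were higher, where 32.5% of all genes with a value were. Foxj1, the transcription factor that defines such cells, had 2.45, 11.5 and 1.97 FPKM in irradiated and 0.394, 0.361 and 0.589 FPKM in control libraries, and Tekt1 was at 0 in irradiated replicate 3. Kif19a and Kif9, like the summed markers, were highest in irradiated replicate 2, and Kif6 differed little between replicates 1 and 2. In irradiated replicates 1 and 3 the summed markers still lay above every control, so leaving out replicate 2 does not remove them. Without irradiated replicate 2 the log2 fold changes of Kif19a and Kif9 were 2.63 and 2.05, with limma adjusted p of 0.00512 and 0.00314. The part of ciliated cells in these rises was not tested.

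The motors that enter every cilium had smaller fold changes. Kif3a, a subunit of the motor that drives transport into the cilium, had 5.81, 4.61 and 5.14 FPKM in irradiated and 2.06, 2.49 and 2.53 FPKM in control libraries, a log2 fold change of 1.1 ± 0.19 (SE, adjusted p = 0.00213 in limma) that was not called after quantile normalization (0.26, limma adjusted p = 0.368). Its partner Kif3b had 10.7, 12.3 and 13.6 FPKM in irradiated and 8.57, 8.77 and 8.94 FPKM in control libraries, and its log2 fold change of 0.47 (limma adjusted p = 0.0228) lost its call in 8 of 14 alternatives, reaching 0.09 after median-ratio scaling. Kif24, which sits at centrioles and holds cilium growth back, fell, with 1.99, 1.33 and 2.82 FPKM in irradiated and 6.36, 5.39 and 5.62 FPKM in control thymus (log2 fold change -1.51 ± 0.28, limma adjusted p = 0.00305). Kif7, a regulator of Hedgehog signalling at the cilium tip, had 0.875, 0.715 and 0.610 FPKM in irradiated and 1.27, 1.70 and 2.08 FPKM in control thymus. Its log2 fold change of -1.08 (limma adjusted p = 0.0177) lost its call without control replicate 2 (limma adjusted p = 0.0705) or 3 (0.0809). Kif17, at 1.02, 0.584 and 0.464 FPKM in irradiated and 0.268, 0.0573 and 0.648 FPKM in control thymus, overlapped between groups and did not pass.

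The other motors held the sharpest contrast between close relatives. Kif21a and Kif21b both slow microtubule growth at plus ends, Kif21b being the form described in T cells. Kif21b (ENSMUSG00000041642, chromosome 1, 136131389 to 136177998) had 27.2, 13.7 and 18.5 FPKM in irradiated thymus, against 47.6, 49.3 and 56.7 FPKM in control thymus, and Kif21a (chromosome 15, 90933276 to 91049948) had 12.0, 10.6 and 6.56 FPKM in irradiated thymus, against 2.55, 0.954 and 1.5 FPKM in control thymus. Kif21b thus fell (log2 fold change -1.42 ± 0.25, limma adjusted p = 0.0023) and Kif21a rose (2.53 ± 0.38, limma adjusted p = 0.00125), each without overlap between groups. Kif26a, a family member without motor activity that acts in nerve development, had 3.79, 4.23 and 3.94 FPKM in irradiated and 0.997, 0.776 and 0.770 FPKM in control thymus, a log2 fold change of 2.12. Kif2a, a microtubule depolymerase of neurons and spindles and a relative of Kif2c, had 9.73, 6.99 and 7.02 FPKM in irradiated and 11.9, 9.67 and 11.0 FPKM in control thymus, with overlapping groups and a log2 fold change of -0.46 (limma adjusted p = 0.057). It passed as lower after median-ratio scaling (-0.84, limma adjusted p = 0.00954).

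The remaining members were low or did not pass. Kif1bp had 10.1, 13.5 and 12.1 FPKM in irradiated and 9.51, 10.0 and 9.20 FPKM in control libraries, which did not pass (log2 fold change 0.30, limma adjusted p = 0.12). Besides Kif2b and Kif27, the members under 0.5 FPKM on average were Kif26b (0.394 to 0.622 FPKM in irradiated and 0.0198 to 0.0554 FPKM in control libraries), Kif5a (0.176 to 0.502 FPKM in irradiated and 0.0465 to 0.152 FPKM in control libraries), Kif12 (at most 0.198 FPKM) and Kif28 (at most 0.335 FPKM, in control replicate 1). With no filter on low values Kif26b, Kif27 and Kif5a also passed as higher, at limma adjusted p of 0.00101, 0.0055 and 0.0383, and Kif12 and Kif28 did not.

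The make-up of the kinesin mRNA pool changed accordingly. Summed over the 42 motors, FPKM came to 276, 256 and 250.2 in irradiated libraries, against 418, 395 and 392 in control libraries. Mitotic kinesins held 18.4%, 7.32% and 11.3% of that sum in irradiated libraries and 56.3%, 54.0% and 50.7% in control libraries. Transport motors held 53.0%, 67.3% and 63.0% in irradiated libraries and 23.9%, 25.8% and 26.2% in control libraries. A share also grows when another class shrinks. Summed FPKM in irradiated and control libraries was 18.8 to 50.8 and 199 to 235 for mitotic and 146 to 173 and 99.9 to 103 for transport motors. It was 25.5 to 28.8 and 19.1 to 20.5 for ciliary and 36.1 to 53.2 and 60.9 to 70.0 for other motors. By mean FPKM, which is per length and so can be set between genes, irradiated thymus had Kif1c (29.7), Kif1b (29.5), Kif5b (28.9), Kif13b (23.8) and Kif13a (21.7) on top, with SDs of 2.53 to 11.7 FPKM, so that the first 3 do not differ beyond their spread. Control thymus had Kif5b (52.3), Kif21b (51.2), Kif15 (32.6), Kif11 (27.3) and Kif23 (26.2), with SDs of 0.588 to 4.80 FPKM. By the spread between libraries Kif5b and Kif21b do not differ clearly, nor do Kif15 and Kif11, or Kif11 and Kif23. Within each control library, however, Kif15 lay above Kif11 and Kif11 above Kif23, while Kif5b and Kif21b changed order. Of the 15 most abundant members, 1 was a mitotic kinesin in irradiated thymus and 10 were in control thymus.

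**Figure D5:**
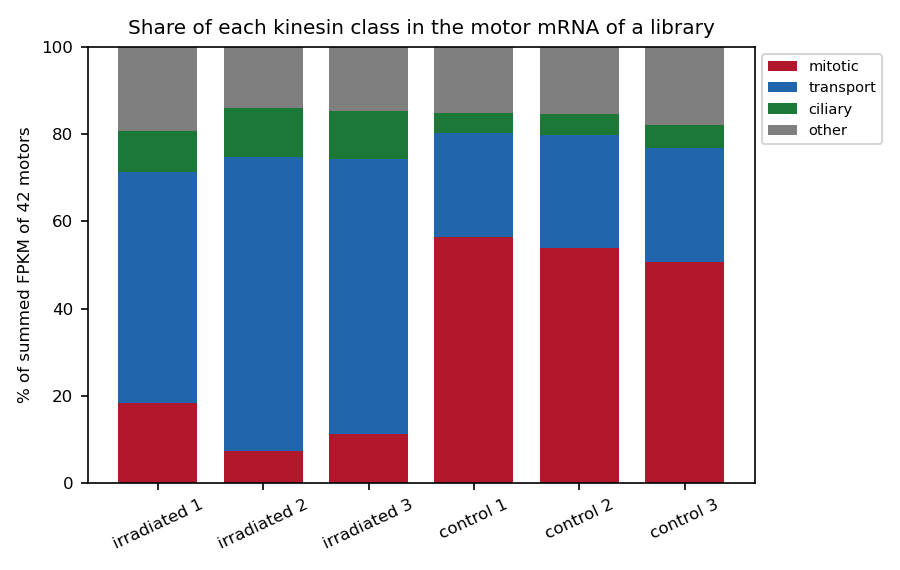
Share of each kinesin class in the summed FPKM of the 42 motors, 1 bar per library with irradiated libraries on the left. Mitotic kinesins take 7.32% to 18.4% of the irradiated bars and 50.7% to 56.3% of the control bars.

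Proteins that work with each class were read from the same fit. Of 20 spindle partners 19 fell, where 20.9% of all tested genes fell. Their log2 fold changes had a median of -2.52, beside 0.40 for all genes. Ect2, the activator of the cleavage furrow, fell by 2.60, Nusap1, a microtubule bundler, by 3.81, Hmmr, a spindle pole protein, by 3.29, and Anln, a scaffold of the contractile ring, by 2.48, all on the log2 scale, while Numa1, which anchors dynein at spindle poles, did not pass at -0.29 (limma adjusted p = 0.177). Cenpe, a kinesin of the kinetochore that the naming rule for members does not take in, had 2.71, 0.650 and 0.918 FPKM in irradiated and 17.4, 13.8 and 12.1 FPKM in control libraries. It was named here after its values were seen, and its fall of 3.48 on the log2 scale lay within the range of the mitotic kinesins.

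Light chains and cargo adaptors went both ways. Among 15 of them 7 rose and 2 fell, and the share that rose was near the 42.4% of all tested genes. Their median log2 fold change was 0.28, under the 0.40 of all genes. Mapk8ip1, an adaptor of Kif5 motors, had 7.49, 8.45 and 6.53 FPKM in irradiated and 1.16, 0.867 and 1.28 FPKM in control libraries. Plekhm2 and Arl8a, which couple lysosomes to kinesin, rose by 1.54 and 1.39 on the log2 scale. Kifap3, the accessory subunit of the Kif3a and Kif3b motor, was named after its values were seen and rose by 0.99. The light chain gene Klc3 fell by 1.76 (2.75, 2.91 and 2.37 FPKM in irradiated and 8.67, 8.95 and 10.2 FPKM in control libraries) and the mitochondrial adaptor gene Trak2 by 0.55. After median-ratio scaling 7 of the 15 fell, where 4558 of all 14001 tested genes fell, against 2920 in the main fit.

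Cytoplasmic dynein, the motor that walks the other way, was read with dynactin and its adaptors. Of 19 genes 6 rose and 1 fell, where 42.4% of all tested genes rose and 20.9% fell, and the median log2 fold change was 0.34. The adaptor gene Bicd1 rose by 1.44, the dynactin genes Dctn2 and Dctn1 by 0.84 and 0.72 and the heavy chain gene Dync1h1 by 0.94, while Nde1, a dynein regulator that is used in mitosis, fell by 0.62. Of 22 intraflagellar transport genes, whose products Kif3a and Kif3b carry, 14 rose and 3 fell, beside the same 42.4% and 20.9% of all tested genes, with a median of 0.66. Wdr35, Dync2li1 and Ift43 rose by 1.52, 2.16 and 3.64, and Ift80, Ift57 and Cluap1 fell by 1.67, 0.82 and 0.81. Intraflagellar transport genes called higher numbered 5 after quantile normalization, 8 after median-ratio scaling and 9 without control replicate 2. All genes called higher numbered 5933 of 14001 tested in the main fit. In those alternatives they numbered 3501 of 14001, 4655 of 14001 and 4916 of 14143, in the same order.

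The lncRNA table gives a further readout of the same genes, transcripts annotated as retained introns (77), processed transcripts (34) or not in M21 (1) at 35 kinesin genes, 112 in all. They share exons or introns with the mRNAs, so their fragments are not independent of them, and the table was normalized on its own. Of 51 with at least 0.5 FPKM on average, 33 were lower, where 24.6% of all tested transcripts of that table were, and 1 was higher, where 8.26% were. Without control replicate 1 or control replicate 3 the lower calls were 20. Of the 31 at mitotic kinesins 26 fell, with a median log2 fold change of -2.48, beside -0.57 for all tested transcripts. Those of Kif15 summed to 4.28, 1.11 and 1.22 FPKM in irradiated and 17.9, 13.9 and 12.9 FPKM in control libraries, and those of Kif23 to 3.56, 0.816 and 1.77 FPKM in irradiated and 16.2, 14.3 and 15.9 FPKM in control libraries, with 7 of 7 and 6 of 6 called lower. The 4 tested at Kif5b fell as their mRNA did. The transcript that was called higher belongs to Kif13a, with 2.37, 1.89 and 2.81 FPKM in irradiated and 0.136, 0.481 and 1.26 FPKM in control libraries, and it was not called in 5 of the 6 fits that left out a library. None of the 4 at Kif13b was called in limma in that table.

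By the authors' deposited table, 18 kinesin genes were lower and 13 higher at an adjusted p under 0.05, of 42 with a value, where 14.0% of all genes with a value were lower and 32.5% higher. The authors' deposited table lists 13 mitotic kinesins as lower, with Kif11 at a log2 fold change of -3.80 and Kif20a at the smallest adjusted p among them, 1.57e-13. There, in the authors' deposited table, Kif3a (adjusted p = 0.0669), Kif3b (0.590), Kif13b (0.355) and Kif16b (0.338) did not pass, and Kif26b and Kif27 were higher.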

How the data were processed

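Whole thymus RNA of irradiated and control mice, 3 libraries of each, was analysed, grouped by labelled treatment, with every library kept. The authors deposited FPKM values per library for mRNA genes and for lncRNA transcripts, with fold changes and p-values, and the submitters' processing notes name DESeq2 1.10.1. The aligner, the counting program, its strand setting and the annotation release it used were not given in the sources used here. The mRNA table has 59179 lines of 21954 genes, and lines of 1 gene differed in value for 0 genes, so 1 value per gene was used. The spans of 43 of 43 kinesin genes lay within the GENCODE M21 gene, on GRCm38. Lines without values, 62 in the lncRNA table, were dropped.

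Log2(FPKM + 0.1) of genes averaging at least 0.5 FPKM was fitted with limma 3.58.1 in R 4.3.3, with group as the only factor and an abundance trend, and p-values were Benjamini-Hochberg adjusted over all tested genes of a table. The pseudocount understates changes of low genes. Log2 fold changes are irradiated minus control. The fit was tested on simulated data. The worth of 1 fragment was read from the lowest FPKM times length that recurs most among single-transcript genes. Floors of 3 fragments cover counting error only.

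Values in every library are given for the tested mitotic kinesins and for other called kinesins whose higher group averages 1 FPKM or more, and partner genes are the 4 with the smallest adjusted p and those against the direction of their list. Further members were added where they fill a class. Members, classes and lists were chosen with earlier results of these data known. The main fit did not pair libraries by replicate number.

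Alternatives were other pseudocounts, filters and scalings, the replicate block and leaving out each library. Those on the lncRNA table were chosen after seeing the data.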

Additional observations from a re-analysis of the deposited data

How the results depend on the processing

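The 13 tested mitotic kinesins kept their fall and their call in all 14 alternatives tried. Kinesin genes called lower numbered 18, and 16 to 20 over the fits that left out 1 library. Those called higher numbered 15, and 12 to 16 over the same fits, but 9 after quantile normalization. Over all genes, 5933 were higher and 2920 lower. Quantile normalization gave 3501 and 4403, and median-ratio scaling 4558 lower. Leaving out 1 library gave 4916 to 6730 higher and 2150 to 3466 lower. Directions turned for Kif16b (-0.03) and Kif17 (-0.55) after quantile normalization. Kif1bp turned to -0.01 with quantile normalization, and to -0.08 with median-ratio scaling. Kifc2 turned to 0.08 without irradiated replicate 3, and was at -0.69 (limma adjusted p = 0.0477) without irradiated replicate 1. Kif2a also passed as lower after quantile normalization (-0.86). Quantile normalization brought the log2 fold changes of Kif9, Kif5c, Kif26a and Kif19a to 0.83, 1.18, 0.94 and 1.56, and those of Kif7 and Kif24 to -2.49 and -2.51. The cause was not tested. Deviations of same-numbered libraries correlated at 0.06, -0.043 and 0.052, and not every library correlated best with its own number. With the replicate block, 14 kinesins were higher and 17 lower, Kif7 (limma adjusted p = 0.0508) and Kif16b (0.0781) being lost. Noncoding kinesin transcripts called lower numbered 33, and 20 to 40 over the fits that left out 1 library. At these depths members under 0.5 FPKM rest on few fragments.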
